A study of Mus musculus with 4 samples.

Results

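The cytotoxic granule genes described here are 8 of the 31053 genes in the deposited single-cell tables, taken by symbol: the granzymes Gzma, Gzmb, Gzmc and Gzmk, the pore former Prf1, the granule membrane gene Nkg7, the death ligand Fasl and the granzyme B inhibitor Serpinb9. They were followed in leukocytes of the ischemic hemisphere of C57/BL6 mice after tMCAO, a transient block of the middle cerebral artery that models stroke. One group of 2 libraries was taken on day 14 after tMCAO and the other group of 2 libraries on day 5. After perfusion with cold saline, flow cytometry took out the CD45high cells, which are leukocytes by that surface protein, and their RNA was tagged at its 3' end with 10x Single Cell 3' v2 reagents. All mice had tMCAO, with no uninjured group among the samples, and neither the age of the mice nor whether a library pooled several of them was given. The p-values below therefore measure the spread between these libraries only.

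NK cells and CD8 T cells kill target cells by releasing secretory granules into the contact zone. Perforin opens pores in the target membrane, and granzymes, a family of serine proteases, enter and cleave proteins inside the target, while Fas ligand triggers death through the receptor Fas at the cell surface. The killing cell and cells that present antigen to it carry serpins that inactivate granzyme B.

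The 4 granzyme genes among the members lie in 2 regions of the mouse genome (GRCm38, GENCODE M21 gene models). Gzma (ENSMUSG00000023132) lies at chr13:113093825-113100981 and Gzmk (ENSMUSG00000042385) at chr13:113171608-113225908, 70.626 kb apart on the minus strand. Gzmb (ENSMUSG00000015437) lies at chr14:56258838-56262260 and Gzmc (ENSMUSG00000079186) at chr14:56231441-56234656, also on the minus strand and 24.181 kb apart. Prf1 (ENSMUSG00000037202) is at chr10:61297833-61304680, Nkg7 (ENSMUSG00000004612) at chr7:43437073-43438249 and Serpinb9 (ENSMUSG00000045827) at chr13:33003250-33017957, all on the plus strand, and Fasl (ENSMUSG00000000817) is at chr1:161780689-161788495 on the minus strand. The Gzmk gene model overlaps Esm1 on the other strand. No member shared a window of 50 bases within the last 500 bases of its transcripts with a transcript of another gene, so reads of neighbouring granzymes could be told apart.

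Promoters of 4 members are shown because their levels in NK cells differed most between the days (Gzma, Prf1 and Gzmc) or because the gene is a near neighbour of one of them (Gzmb). Each runs from 250 bases before to 50 bases after the transcription start on the strand of the gene, in the RefSeq annotation of GRCm38.p6. Capitals mark matches, on either strand, to TGTGGT (Runx), TCACAC (T-box), TGANTCA (AP-1) and TGACGTCA (cyclic AMP response element, CRE).
Gzma, chr13:113100932-113101231, minus strand: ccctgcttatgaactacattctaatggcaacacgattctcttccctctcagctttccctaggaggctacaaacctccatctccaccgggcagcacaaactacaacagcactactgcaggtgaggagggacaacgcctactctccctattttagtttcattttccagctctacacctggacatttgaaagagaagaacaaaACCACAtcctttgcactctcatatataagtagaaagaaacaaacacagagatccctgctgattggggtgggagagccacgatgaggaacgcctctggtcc
Prf1, chr10:61297586-61297885, plus strand: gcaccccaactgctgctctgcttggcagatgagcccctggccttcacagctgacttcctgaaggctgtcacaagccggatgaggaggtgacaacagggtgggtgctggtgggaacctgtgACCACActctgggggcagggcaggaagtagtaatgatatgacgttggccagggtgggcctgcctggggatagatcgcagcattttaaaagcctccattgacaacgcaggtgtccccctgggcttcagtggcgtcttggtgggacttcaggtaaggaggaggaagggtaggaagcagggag
Gzmb, chr14:56262285-56262584, minus strand: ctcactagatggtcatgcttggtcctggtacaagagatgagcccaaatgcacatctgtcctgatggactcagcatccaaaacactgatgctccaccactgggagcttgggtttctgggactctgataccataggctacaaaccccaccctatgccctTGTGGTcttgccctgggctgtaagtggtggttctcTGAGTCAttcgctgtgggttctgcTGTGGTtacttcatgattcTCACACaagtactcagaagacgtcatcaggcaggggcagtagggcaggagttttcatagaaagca
Gzmc, chr14:56234608-56234907, minus strand: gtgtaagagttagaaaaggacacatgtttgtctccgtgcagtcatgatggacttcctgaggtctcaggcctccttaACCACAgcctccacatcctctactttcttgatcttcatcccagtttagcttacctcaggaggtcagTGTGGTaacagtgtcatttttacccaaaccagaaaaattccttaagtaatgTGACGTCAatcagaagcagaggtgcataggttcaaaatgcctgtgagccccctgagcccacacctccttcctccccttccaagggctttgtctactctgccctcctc
All 4 held a Runx match, once in Gzma at -50 and in Prf1 at -130 bases from the start, and in 2 places in Gzmb (-93 and -34) and Gzmc (-174 and -108). Of 32851 mouse promoter windows of the same length, 16.8% held the Runx letters. Among the members not shown, Nkg7 and Serpinb9 held them as well, whereas Gzmk and Fasl did not. The neighbours Gzmb and Gzmc differed in the rest. Gzmb had an AP-1 match at -58 and a T-box match at -15, letters held by 7.81% and 14.5% of promoters, whereas Gzmc had the CRE letters at -57, held by 1.79% of promoters. The T-box letters were also held by Gzmk and Nkg7. All of these are matches of letters and were not tested as binding sites.

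Cells were assigned to classes by UMIs (unique molecular identifiers, each marking 1 captured RNA molecule) of marker genes that are not members. An NK cell needed 2 or more UMIs of Ncr1, Klrb1c and Klre1 in sum and fewer than 2 of Cd3d, Cd3e, Cd3g and Trac. T cells needed 2 or more of those 4 T cell genes and fewer than 2 of the NK genes, and CD8 T cells also a UMI of Cd8a or Cd8b1 and none of Cd4. Barcodes with 2 or more UMIs of both sets are called NK-marker T cells. In all, 9531 of 10925 barcodes fell into a class, 596 carried markers of more than 1 lineage (mixed barcodes), 714 stayed unassigned and 84 failed a quality limit. The day 14 libraries held 258 and 262 NK cells, 158 and 106 CD8 T cells and 722 and 382 T cells. The day 5 libraries held 107 and 111 NK cells, 17 and 18 CD8 T cells and 56 and 56 T cells. The T cell class leaves out the NK-marker T cells, which numbered 64 and 51 on day 14 and 3 and 2 on day 5. NK cells were 9.99% and 11.3% of barcodes on day 14 and 4.21% and 3.18% on day 5 (two-sided exact permutation test p = 0.333, the smallest that 2 against 2 libraries allow).

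Libraries held between 9288054 and 13610119 UMIs. The lowest total of any barcode was 1180 and 1317 UMIs in the day 14 libraries and 500 and 505 UMIs in the day 5 libraries, so day 5 includes shallower cells. The median NK cell had 2186 and 3169 UMIs on day 14 and 1492 and 1200 UMIs on day 5. At most 16 barcodes were shared by any pair of libraries. All 8 NK markers of the full list were found in the NK class of every library, while Cd8a and Cd8b1 together stood at 7.42 and 5.16 CPM (UMIs per 1000000 UMIs of the class) on day 14 and at 0 on day 5.

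NK cells held most UMIs of Gzma, Gzmc and Prf1, whereas Gzmk UMIs lay mainly in T cells and Serpinb9 was divided between NK cells and dendritic cells. Over the 4 libraries, Gzma, a tryptase, had 9991 UMIs in 956 barcodes. NK cells held 77.8% of them, T cells 2.0% and NK-marker T cells 2.3%. Gzmb, the aspartate-cleaving granzyme that activates caspases, had 3694 UMIs in 895 barcodes, 55.5% in NK cells and 18.9% in T cells, of which CD8 T cells held 11.1% of the total. Gzmc, whose substrates are less well known, had 1160 UMIs in only 138 barcodes. NK cells held 79.1% and NK-marker T cells 15.9% of these.

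Gzmk, a tryptase like Gzma, had 261 UMIs in 162 barcodes, 55.2% of them in CD8 T cells and 5.7% in NK cells. Prf1, which encodes perforin, had 943 UMIs in 535 barcodes, 72.1% in NK cells and 5.8% in T cells. Nkg7, which takes part in granule release, was the most widely found member, with 12962 UMIs in 2056 barcodes, 47.2% in NK cells and 24.5% in T cells. Fasl had 501 UMIs in 411 barcodes, with 49.3% in NK cells and 24.2% in T cells. Serpinb9 had 1992 UMIs in 1022 barcodes, and NK cells held 34.2%, T cells 6.7% and myeloid cells 43.3% of them. Mature dendritic cells alone, gated on Ccr7 and Fscn1, held 28.2% of Serpinb9 UMIs. Mixed barcodes held between 9.7% and 21.5% of the UMIs of Gzma, Gzmb, Gzmk, Prf1 and Nkg7, with the largest share for Gzmk. Another 6.0% of Gzma UMIs were in unassigned barcodes, where 95 barcodes with exactly 1 NK-marker UMI held 480 of them.

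**Figure D1:**
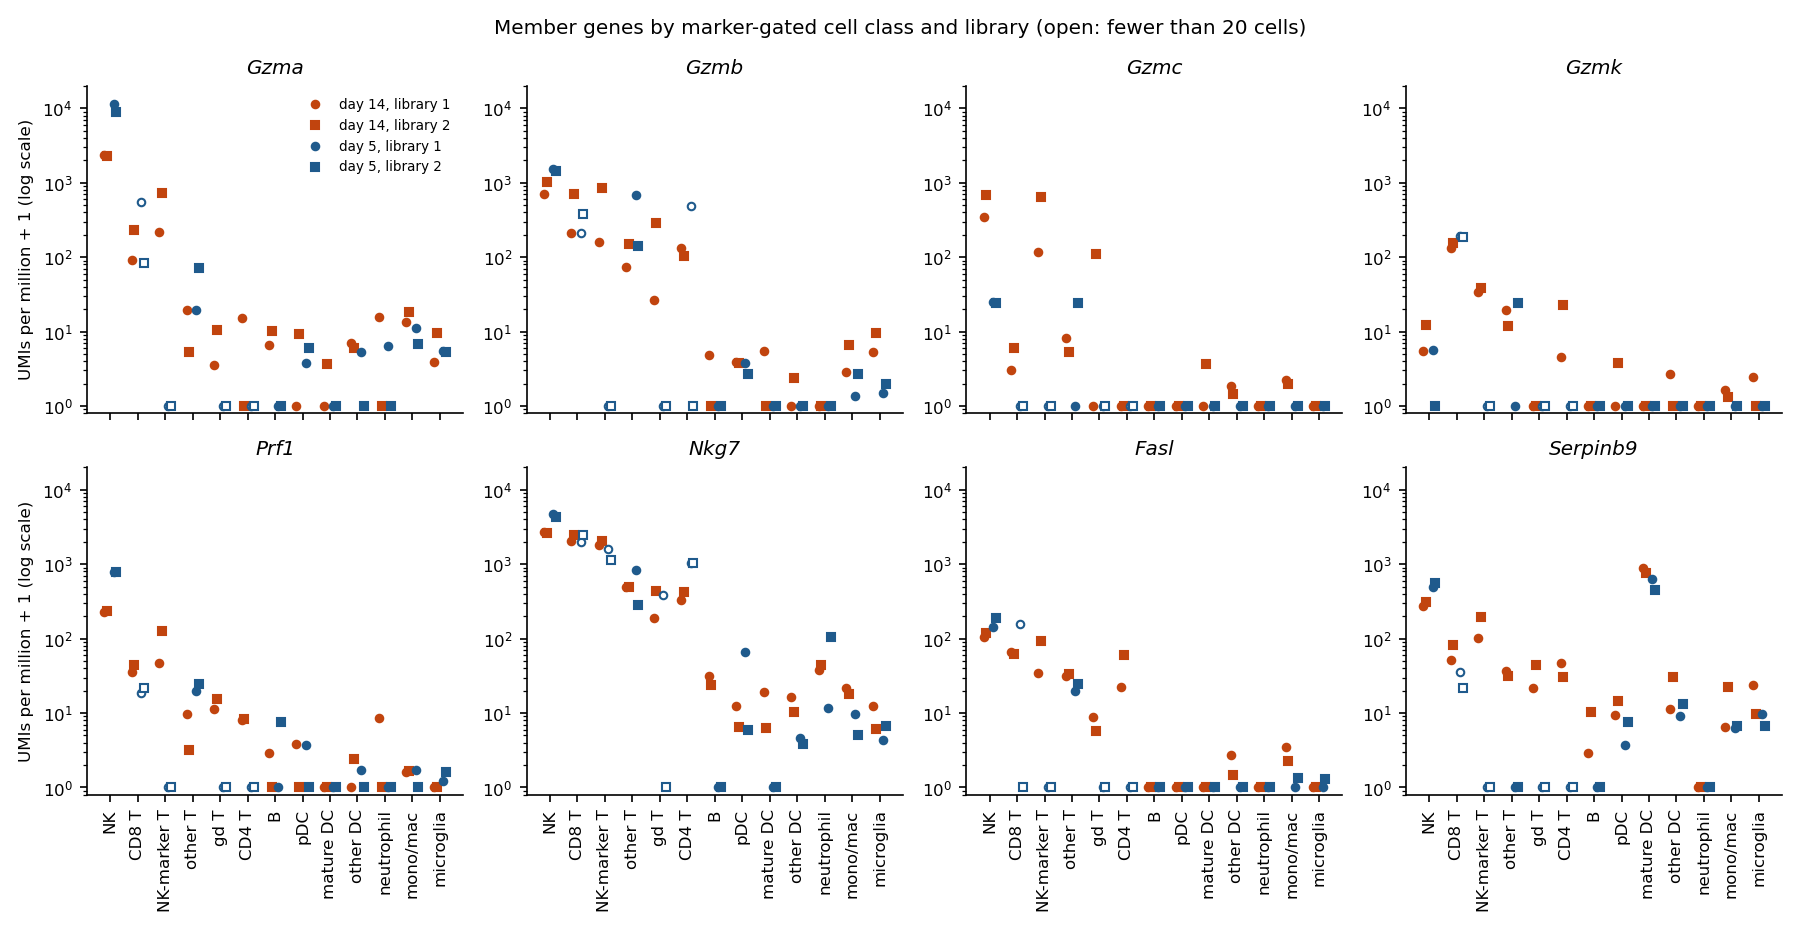
CPM plus 1 on a log axis for each of the 8 genes (panels) in 13 marker-gated classes (x axis), with 1 symbol per library and day 14 symbols left of day 5 symbols; open symbols stand for fewer than 20 cells. Gzma and Prf1 were highest in NK cells of the day 5 libraries, Gzmc was seen in NK and NK-marker T cells of the day 14 libraries, Gzmk stood highest in CD8 T cells and Serpinb9 in mature dendritic cells.

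NK cells carried more of 7 members than T cells did, and T cells more Gzmk. NK-marker T cells were in neither class of this comparison. In sums of UMIs per library and class, NK cells exceeded T cells in Gzma by a log2 fold change of 5.71 ± 0.23, in Gzmc by 5.45 ± 0.23, in Prf1 by 4.08 ± 0.19 and in Serpinb9 by 3.01 ± 0.19 (SE, 4 libraries with the library as a block). Gzmb (2.18 ± 0.17), Fasl (1.67 ± 0.20) and Nkg7 (1.63 ± 0.14) were also higher, and Gzmk was lower (-2.89 ± 0.35, adjusted p = 2.64e-06). All 8 passed edgeR's quasi-likelihood test with Benjamini-Hochberg adjustment, as did 16.1% of the 4955 genes tested, 7.51% higher and 8.58% lower, and all 8 passed it under each alternative tried. The median log2 fold change of the 8 was 2.59, against -0.01 over all genes tested.

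Of 44 genes of a cytotoxic pathway list, 29 were tested between NK and T cells, and 12 were higher and 5 lower in NK cells. The higher ones included Eomes, a T-box factor (3.46), Serpinb6b (2.58) and Serpina3g (1.88), both serpins, the IL-2 and IL-15 receptor chain Il2rb (1.77), the cathepsin Ctsw (1.65), the T-box factor Tbx21 (1.65) and Ifng, the gene of interferon gamma (1.62). The lower ones included the serpins Serpinb1a (-2.92) and Serpinb6a (-1.23) and the lymphotoxin chain Ltb (-1.08), all as log2 fold changes.

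Against CD8 T cells the difference was smaller for Gzmb and not detected for Nkg7. Only the day 14 libraries had 20 or more CD8 T cells, so this fit holds 2 libraries and has 1 residual degree of freedom. Gzmb stood at 717 and 1032 CPM in NK cells and at 208 and 701 CPM in CD8 T cells. The ranges came close, since CD8 T cells of library 2 nearly reached NK cells of library 1. The fold change of Gzmb was 1.00 ± 0.17 on the log2 scale (adjusted p = 0.000187 by edgeR). The call was lost by DESeq2 (adjusted p = 0.680). Nkg7 stood at 2732 and 2627 CPM in NK cells and at 2026 and 2473 CPM in CD8 T cells, a log2 fold change of 0.19 ± 0.12 (edgeR adjusted p = 0.399). With mixed barcodes kept, Nkg7 was called higher in NK cells (0.89, edgeR adjusted p = 0.00257).

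In that fit 6 of the 8 members were higher in NK cells and 1, Gzmk, was lower, where 10.7% of 5799 genes were called, 5.17% higher and 5.54% lower. Gzmc (7.08 ± 0.31), Gzma (3.86 ± 0.19), Prf1 (2.50 ± 0.21) and Serpinb9 (2.08 ± 0.18) differed most, and Fasl (0.75 ± 0.22, edgeR adjusted p = 0.0258) was not called by DESeq2. Gzmk averaged 7.90 ± 4.88 CPM in NK cells and 141 ± 15.1 CPM in CD8 T cells (SD, n = 2 libraries), a log2 fold change of -4.12 ± 0.32. Of the 31 pathway genes tested, 10 were higher and 4 lower in NK cells. Serpinb9b, a close relative of Serpinb9, was higher in NK cells (6.87 ± 1.28) and Gzmm, a further granzyme gene, was lower (-3.62 ± 0.47).

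Among T cells most UMIs of Gzma, Gzmb, Gzmk, Prf1, Nkg7 and Fasl were in the CD8 class, which held 171 of 197 UMIs of Gzma but only 3 of 34 UMIs of Gzmc and 60 of 133 UMIs of Serpinb9. Between CD8 and CD4 T cells of day 14, 5 of 7 members tested were higher in CD8 T cells, where 6.02% of 4083 genes were called and 2.96% were higher. These were Gzma (3.93), Gzmk (3.93), Nkg7 (2.75), Prf1 (2.48) and Gzmb (1.75) as log2 fold changes by edgeR, with the smallest margin for Prf1 (adjusted p = 0.0161), whose call was lost with mixed barcodes kept (adjusted p = 0.0664 by edgeR). Fasl (1.02, adjusted p = 0.195) and Serpinb9 (0.78, adjusted p = 0.378) were not called by edgeR. All genes called split into 121 higher and 125 lower with edgeR and into 50 higher and 15 lower with DESeq2. The CD4 class had 92 and 40 cells on day 14 and only 4 cells in each day 5 library.

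Gzmb and Gzmc differed between the 2 day 14 libraries more in gamma delta T cells and NK-marker T cells than in NK cells. CD4 T cells differed less in Gzmb, with 131 and 103 CPM. Gamma delta T cells, gated on Trdc and Tcrg constant genes, had 25.7 and 291 CPM of Gzmb on day 14, and NK-marker T cells had 159 and 839 CPM. Gzmb was 11.3 times and 5.27 times higher in library 2 than in library 1 in these classes, against 3.37 times in CD8 T cells and 1.44 times in NK cells. In gamma delta T cells 1 cell held 35 of the 61 Gzmb UMIs of library 2. Gzmc behaved likewise, with 0 and 110 CPM in gamma delta T cells and 117 and 651 CPM in NK-marker T cells. No direction by day could be read for these classes, which had at most 10 cells in a day 5 library. B cells served as the class that should lack the members, and held 5.70 and 9.28 CPM of Gzma and 30.4 and 23.2 CPM of Nkg7 on day 14 and none of either on day 5. The B cell median depth was 2010 and 2115.5 UMIs on day 14 and 1379 and 1215.5 UMIs on day 5, near or below that of NK cells. Levels at or below these are background.

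The order of classes on day 14, over classes of 20 or more cells, began with NK cells for Gzma, Gzmb, Gzmc, Prf1, Nkg7 and Fasl. For Gzma, NK cells (2320 ± 31.6 CPM, SD, n = 2) stood far above NK-marker T cells (472 ± 359 CPM) and CD8 T cells (160 ± 99.5 CPM), and the last pair overlapped between libraries. For Gzmb, NK cells (874 ± 223 CPM), NK-marker T cells (499 ± 480 CPM) and CD8 T cells (455 ± 349 CPM) overlapped at their neighbours. For Prf1, NK cells (229.9 ± 1.85 CPM) lay above NK-marker T cells (85.6 ± 55.9 CPM) and CD8 T cells (38.8 ± 5.92 CPM) without overlap. For Nkg7, NK cells (2679 ± 74.8 CPM) were followed by CD8 T cells (2250 ± 316 CPM) and NK-marker T cells (1923 ± 154 CPM), a pair that overlapped, and then by other T cells (489.9 ± 2.15 CPM).

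NK cells of day 14 held less Gzma and Prf1 and more Gzmc than NK cells of day 5, and Gzmb, Nkg7 and Serpinb9 were lower by smaller amounts. NK cells had 2342 and 2297 CPM of Gzma in the day 14 libraries, against 11596 and 8864 CPM in the day 5 libraries. The day 14 values lay close together and well below both day 5 values. The log2 fold change was -2.002 ± 0.12 (SE, 2 libraries per day; edgeR's quasi-likelihood test with Benjamini-Hochberg adjustment, adjusted p = 6.86e-10). Prf1 stood at 229 and 231 CPM on day 14 and at 784 and 796 CPM on day 5, also without overlap. Its log2 fold change was -1.64 ± 0.16 (edgeR adjusted p = 9.6e-07).

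Gzmc moved the other way. It had 349 and 695 CPM in NK cells of day 14 and 23.6 and 23.4 CPM on day 5, where only 5 and 4 UMIs were counted. Both day 14 libraries were above both day 5 libraries, and library 2 had 1.99 times the level of library 1. The log2 fold change was 4.61 ± 0.41 (edgeR adjusted p = 1.89e-07).

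Gzmb had 717 and 1032 CPM on day 14 and 1511 and 1458 CPM on day 5 (log2 fold change -0.62 ± 0.16, edgeR adjusted p = 0.0219). The days did not overlap, but the call was lost without day 14 library 1 (-0.38, edgeR adjusted p = 0.219) and without day 5 library 1 (-0.60, edgeR adjusted p = 0.102), and DESeq2, stricter gates and mixed barcodes kept also ended the call. Nkg7 had 2732 and 2627 CPM on day 14 and 4693 and 4333 CPM on day 5 (-0.61 ± 0.11, edgeR adjusted p = 0.00149), a call lost with mixed barcodes kept (-0.30). Serpinb9 had 272 and 308 CPM on day 14 and 491 and 562 CPM on day 5 (-0.71 ± 0.17, edgeR adjusted p = 0.0143). The call for Serpinb9 was lost without day 5 library 2 (-0.62, edgeR adjusted p = 0.210), by DESeq2 and with mixed barcodes kept.

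Fasl had 104 and 119 CPM on day 14 and 142 and 187 CPM on day 5, without overlap but not past the threshold (-0.40 ± 0.24, edgeR adjusted p = 0.488). Gzmk was too low in NK cells for the test, at 4.45 and 11.4 CPM on day 14 and 4.72 and 0 CPM on day 5. The 0 UMIs in 111 NK cells of day 5 library 2 allow up to 17.6 CPM. In all, 1 member was higher and 5 were lower of 7 tested, where 5.66% of 5155 genes were called, 3.88% higher and 1.78% lower. The median log2 fold change of the 7 was -0.62, against 0.01 over all genes tested.

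**Figure D2:**
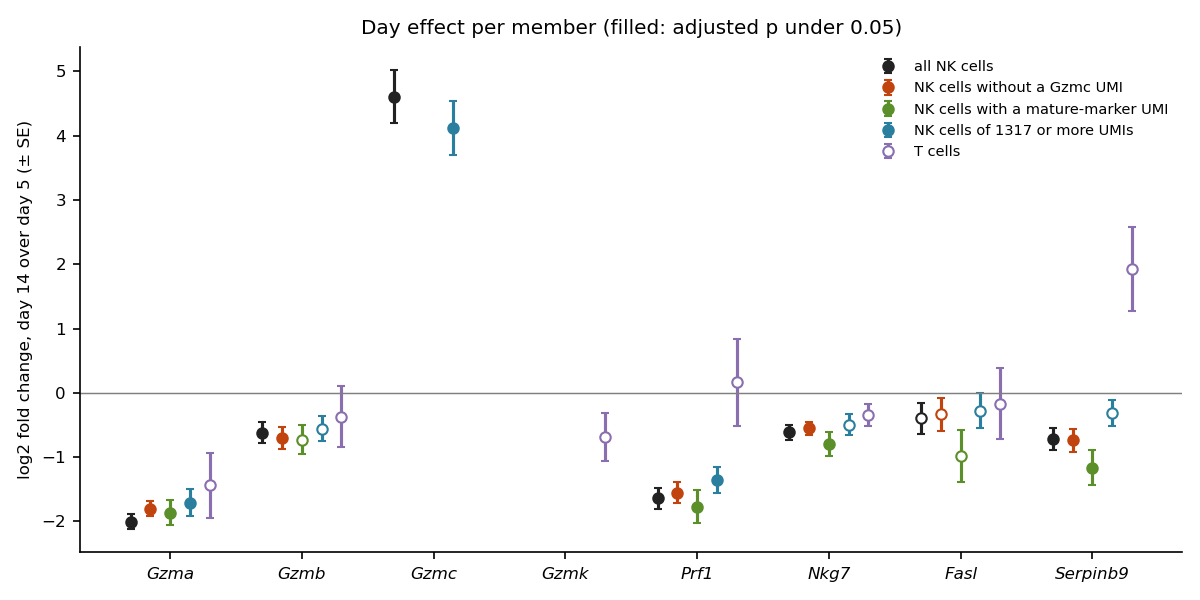
Log2 fold change of day 14 over day 5 (y axis, ± SE, 2 libraries per day) for each gene (x axis) in all NK cells, 3 narrower sets of NK cells and T cells; filled symbols passed an adjusted p of 0.05. Gzma and Prf1 lay below 0 in every NK set tested, Gzmc lay at 4.61 in all NK cells and 4.12 in those of 1317 or more UMIs, and no T cell symbol was filled; a gene with no symbol was not tested, or for Gzmc not shown, in that set.

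Since day 5 held shallower barcodes, the comparison was repeated in NK cells of 1317 or more UMIs, the highest of the 4 library minimums. In that set 246 and 262 cells remained on day 14 and 72 and 42 on day 5. Gzma was still lower (2224 and 2297 CPM on day 14, 10615 and 5367 CPM on day 5, log2 fold change -1.71 ± 0.21, edgeR adjusted p = 1.24e-05), as was Prf1 (-1.36 ± 0.21, edgeR adjusted p = 0.000196), and Gzmc was still higher (4.12 ± 0.42, edgeR adjusted p = 3.89e-07). Without day 5 library 1 the Prf1 call was lost (-1.02, edgeR adjusted p = 0.212) and the Gzma change was smaller (-1.12, edgeR adjusted p = 0.00284), and with mixed barcodes kept Prf1 was not called either (-1.09, edgeR adjusted p = 0.0603). Of all 4802 genes in this fit, 2.81% were called, 135 in number, against 36 without day 5 library 1. Gzmb (-0.56 ± 0.20, adjusted p = 0.170), Nkg7 (-0.50 ± 0.16, adjusted p = 0.130) and Serpinb9 (-0.31 ± 0.21, adjusted p = 0.588) kept their direction and were no longer called by edgeR. This set was chosen after the data were seen, as were the 2 that follow.

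The NK class also differed between the days in genes that mark its subsets. Of 8 genes of mature circulating NK cells, 7 were lower on day 14, with a median log2 fold change of -2.06. They included the chymase Cma1 (-4.45), the inhibitory receptor Klrg1 (-2.89), the egress receptor S1pr5 (-2.65) and the integrin Itgam (-2.25). Cma1 stood at 11.9 and 8.26 CPM on day 14 and at 217 and 269 CPM on day 5. NK cells with a UMI of Itgam, S1pr5, Klrg1 or Cma1 were 15.9% and 13.7% of NK cells on day 14 and 63.6% and 45.9% on day 5. Among these cells alone Gzma was lower on day 14 (4060 and 2812 CPM, against 14899 and 12009 CPM on day 5, log2 fold change -1.86 ± 0.20, edgeR adjusted p = 0.0009996). Prf1 in the same cells had 310 and 274 CPM on day 14 and 1075 and 1054 CPM on day 5 (-1.77 ± 0.25, edgeR adjusted p = 0.0048). NK cells without such a UMI had 2087 and 2178 CPM of Gzma on day 14 and 6697 and 6566 CPM on day 5. Gzma was lower on day 14 on both sides of this split. The median cell without such a UMI had 2266 and 3040.5 UMIs on day 14 and 1478 and 1246 UMIs on day 5. A marker can be missed in a shallow cell, so the side without a UMI can hold mature cells. The part of subset make-up in the Gzma change was not tested. Among the cells with a UMI, 4.72% of 1609 genes, 76 in number, were called. With 1 library left out that number ran from 56 to 302, the highest without day 14 library 1. With mixed barcodes kept neither Gzma (-1.52, adjusted p = 0.0624) nor Prf1 (-1.54, adjusted p = 0.0811) was called by edgeR in these cells.

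NK cells without a Gzmc UMI showed the same directions, with Gzma (-1.80), Prf1 (-1.55), Gzmb (-0.70), Nkg7 (-0.55) and Serpinb9 (-0.74) called lower by edgeR, where 4.87% of 4540 genes were called and 1.39% were lower. The calls of Gzmb, Nkg7 and Serpinb9 there were lost without day 5 library 1 (edgeR adjusted p = 0.105, 0.128 and 0.0519), and that of Serpinb9 also without day 14 library 1 (0.0537) or day 5 library 2 (0.288). Phagocyte transcripts in the NK class moved with the day. The 12 mononuclear phagocyte markers summed to 3679 and 3554 CPM on day 14 and to 4755 and 6118 CPM on day 5, with 11 or 12 of them found in each library. The 8 dendritic markers summed to 457 and 818 CPM on day 14 and to 1270.1 and 3121 CPM on day 5. Their part in the result was not tested. Gzma in the mononuclear phagocytes themselves stood at 4.74 to 15.8 CPM over the 4 libraries.

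Other genes of the pathway in NK cells moved both ways. Of the 44, 30 were tested, and 4 were higher and 5 lower on day 14. The higher ones were the death ligand Tnfsf10, or TRAIL (log2 fold change 3.37), Ltb (1.75), the transcription factor Tcf7 (1.65) and Serpina3g (1.24). The lower ones were the protease inhibitor Serpinb9b (-2.19), the transcription factor Zeb2 (-1.78), Ctsl (-1.71), Ctsc, the cathepsin that activates granzymes (-1.17), and Ifng (-1.05). Ctsc stood at 84.6 and 86.7 CPM on day 14 and at 189 and 240.0 CPM on day 5. Ltb stood at 592 and 555 CPM on day 14 and at 132 and 252 CPM on day 5. Of the further granzymes, Gzmd, Gzme, Gzmg and Gzmn were not counted in any NK cell, and Gzmm had at most 18.9 CPM in NK cells of any library. Of 6 tested genes of tissue type 1 innate lymphoid cells, 2 were higher, Tnfsf10 and Xcl1 (1.03). Of 5 cell cycle genes tested, Birc5 alone had an unadjusted p under 0.05, and edgeR did not call it (1.28, adjusted p = 0.280).

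Shares of cells with a UMI depend on depth, so each cell was also thinned to 1000 UMIs, which left out 12 and 29 NK cells of day 5 that had fewer. At that depth Gzma was found in 65.2% and 63.2% of NK cells on day 14 and in 92.4% and 85.7% on day 5. Unthinned, the shares were 75.6% and 76.0% on day 14 and 94.4% and 88.3% on day 5. Thinned B cells had Gzma in 0.480% and 0.910% on day 14 and in none on day 5.

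Prf1 was found in 20.9% and 21.4% of thinned NK cells on day 14 and in 56.3% and 51.5% on day 5. Gzmb was found in 31.2% and 47.6% on day 14 and in 61.2% and 61.9% on day 5, and Serpinb9 in 23.0% and 27.3% on day 14 and in 41.7% and 41.8% on day 5. For these 3 genes every day 14 share was below every day 5 share. Gzmc was found in 6.58% and 12.3% of thinned NK cells on day 14 and in 1.88% and 1.72% on day 5. Fasl was found in 10.7% and 13.1% on day 14 and in 15.4% and 20.9% on day 5. Nkg7 was found in most NK cells on both days, 90.9% and 86.7% on day 14 and 92.3% and 95.3% on day 5. Without thinning, the days overlapped for Gzmb (45.3% and 70.2% on day 14, 73.8% and 65.8% on day 5), Serpinb9 (43.0% and 57.6% on day 14, 58.9% and 51.4% on day 5) and Fasl (24.0% and 32.8% on day 14, 22.4% and 25.2% on day 5). Unthinned Prf1 shares were 38.8% and 46.6% on day 14 and 70.1% and 57.7% on day 5, those of Gzmc 12.4% and 20.99% on day 14 and 2.80% and 2.70% on day 5, and those of Nkg7 98.4% and 96.6% on day 14 and 96.3% and 96.4% on day 5. For each of these genes the two-sided exact permutation test over the 4 libraries gave p = 0.333, the smallest it can give, on the thinned shares.

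**Figure D3:**
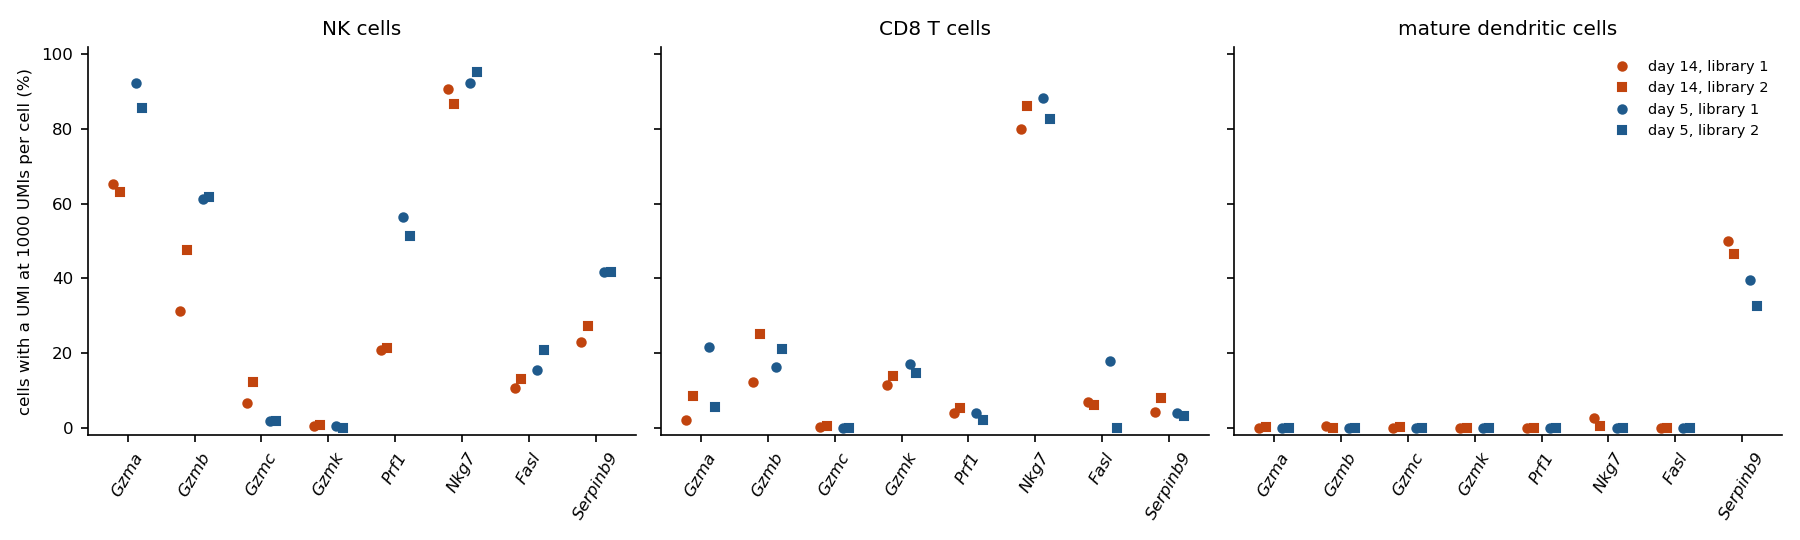
Share of cells with a UMI of each gene (y axis, percent) after thinning to 1000 UMIs per cell, in NK cells, CD8 T cells and mature dendritic cells, with 1 symbol per library and day 14 left of day 5. In NK cells the day 14 symbols lie below the day 5 symbols for Gzma, Gzmb, Prf1 and Serpinb9 and above them for Gzmc, and in mature dendritic cells only Serpinb9 rises clearly above 0.

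The share of a gene's UMIs held by the top NK cells differed between members. On day 14 the top 10% of NK cells held 97.4% and 93.3% of Gzmc UMIs, 65.4% and 45.9% of Gzmb UMIs and 40.7% and 38.2% of Gzma UMIs, but only 24.4% and 25.4% of Nkg7 UMIs. On day 5 the top 10% held 48.4% and 45.0% of Gzmb and 24.6% and 27.0% of Gzma, a smaller share of Gzma than on day 14 in both libraries. These shares were not corrected for the number of UMIs, which differed between members and days. NK cells held 1578 and 2226 Gzma UMIs in 258 and 262 cells on day 14 and 2456 and 1514 in 107 and 111 cells on day 5. Cells of 20 or more Gzma UMIs numbered 20 and 34 on day 14 and 56 and 29 on day 5, though day 5 held fewer NK cells and shallower ones. Gzmc reached 20 or more UMIs in 4 and 9 NK cells on day 14 and in none on day 5, and 1 NK cell of day 14 library 2 held 122.

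**Figure D4:**
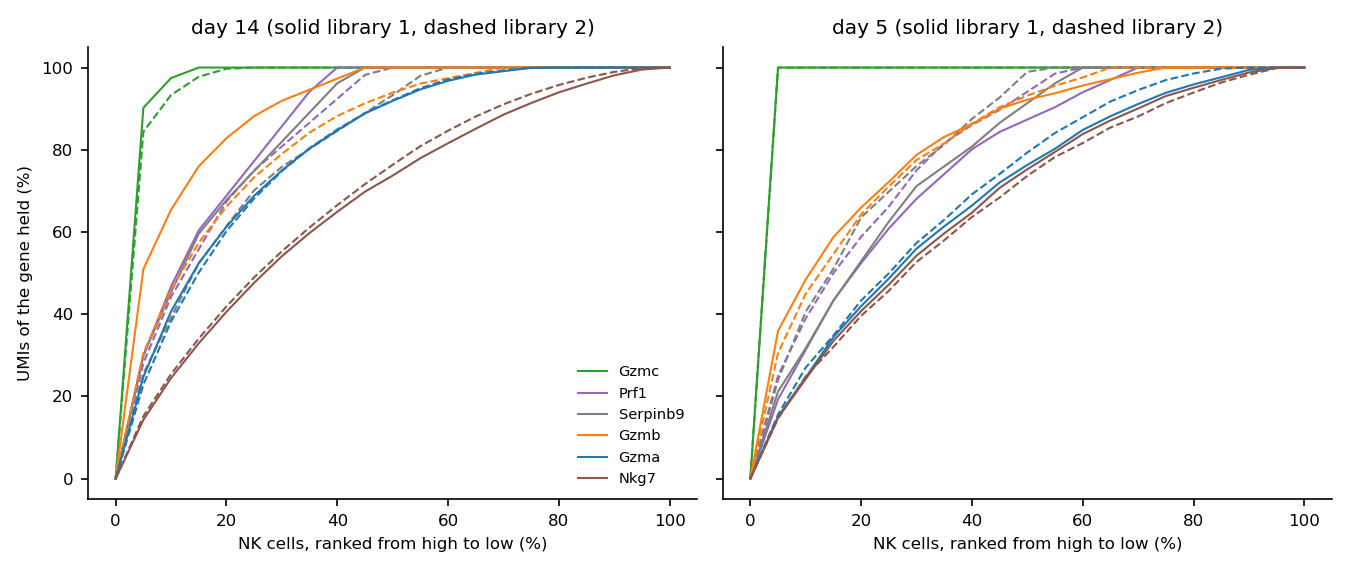
Cumulative percent of a gene's UMIs (y axis) held by NK cells ranked from high to low (x axis, percent of NK cells), with day 14 left and day 5 right. Of the 6 genes drawn (Gzmk and Fasl are not), the Gzmc curve is the steepest on day 14, with 97.4% and 93.3% of UMIs in the top 10%, and the Nkg7 curve the flattest on both days beside that of Gzma on day 5; the day 5 curve of Gzmc rests on 5 and 4 UMIs.

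NK cells that carried Gzmc held less Gzma. The day 14 libraries had 32 and 55 NK cells with a Gzmc UMI, with a median depth of 3478 and 4404 UMIs, against 2071 and 2802 UMIs in NK cells without. The Gzmc-carrying cells had 1136 and 975 CPM of Gzma and the others 2621 and 2851 CPM. In the fit of these 2 libraries with the library as a block, chosen after the data were seen and with 1 residual degree of freedom, the log2 fold change of Gzma was -1.40 ± 0.10 (edgeR adjusted p = 5.27e-42), where 2.74% of 4704 genes were called. So small a p-value rests on the spread shared between genes and does not measure the spread of 2 libraries. Nkg7 was also lower (-0.39 ± 0.09, edgeR adjusted p = 0.000718), a call lost by DESeq2. Prf1 (-0.63 ± 0.22, adjusted p = 0.106), Gzmb (0.28, adjusted p = 0.336), Fasl (-0.24) and Serpinb9 (-0.05) were not called by edgeR. In the 7 and 20 NK cells with 5 or more Gzmc UMIs, Gzma stood at 108 and 593 CPM.

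In the same comparison 5 of 6 cell cycle genes were higher in Gzmc-carrying NK cells, among them Mki67 (log2 fold change 2.18), Cks1b (1.68) and Birc5 (1.49). The chemokine receptor Cxcr6 (1.55), Ltb (0.77) and the chemokine Xcl1 (0.70) were higher, and Klf2 (-1.23) and Eomes (-1.05), genes of circulating or mature cells, were lower. Cells with a Gzmc UMI were deeper than the others. The part of depth in these differences was not tested. The count of genes called fell to 6 by DESeq2, 11 with mixed barcodes kept and 44 with stricter gates, out of 129 by edgeR.

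Within single NK cells Gzma, Gzmb and Prf1 were found together more often than the product of their single shares, and for Gzma with Gzmc the observed share lay below that product. At 1000 UMIs, the share of cells with both Gzma and Prf1 was 1.21 and 1.25 times that product on day 14 and 1.07 and 1.13 times on day 5. Such a ratio cannot exceed the inverse of the larger single share. Gzma and Gzmb were found in more NK cells on day 5, so their ratios cannot be compared between the days. Of thinned NK cells with Prf1, 79.2% and 78.8% also had Gzma on day 14 and 98.6% and 96.8% on day 5. For Gzmb with Prf1 the ratio stood at 1.30 and 1.20 on day 14 and 1.16 and 1.16 on day 5. For Gzma with Gzmc the ratio was 0.42 and 0.56 on day 14, and 27.6% and 35.7% of Gzmc-carrying cells had Gzma. Gzmb with Gzmc lay at 1.27 and 1.23 on day 14. Day 5 had too few Gzmc-carrying NK cells for a ratio, with 3 in each library. These ratios describe cells of 1 library each and carry no test.

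**Figure D5:**
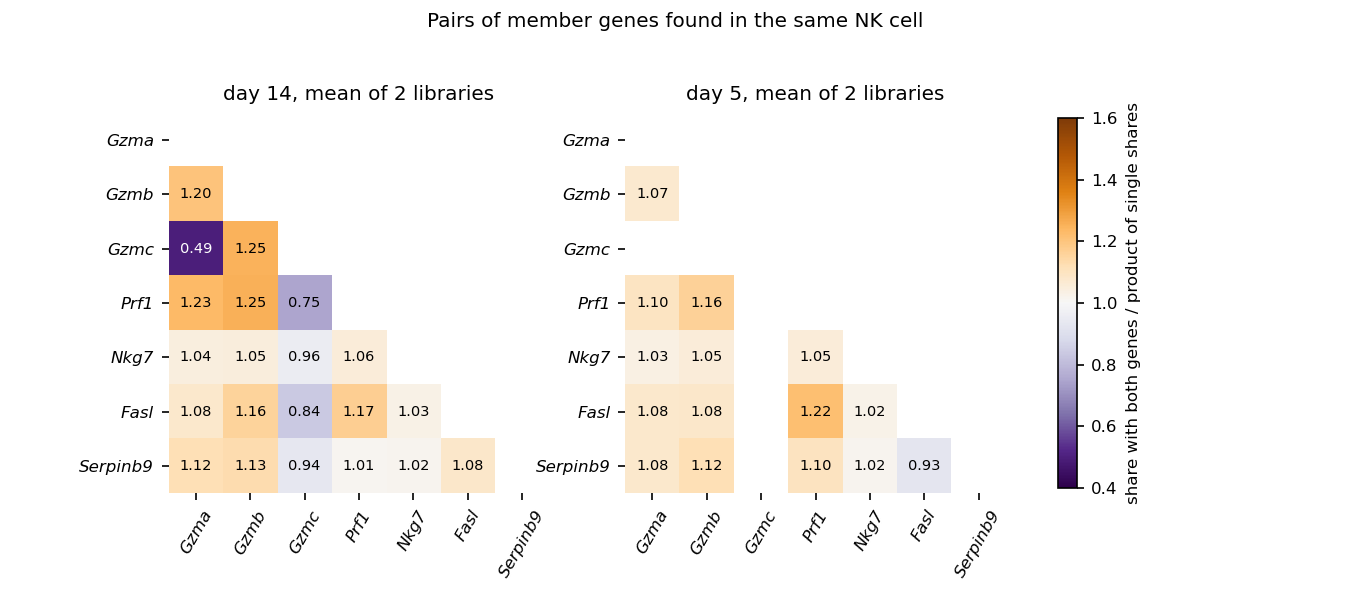
Ratio of the observed share of NK cells with both genes to the product of the single shares, at 1000 UMIs, as the mean of 2 libraries, with day 14 left and day 5 right; Gzmk is not shown, nor are Gzmc pairs on day 5. On day 14 Gzma with Gzmc stood lowest, at 0.49, and pairs among Gzma, Gzmb and Prf1 stood at 1.20 to 1.25.

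The number of members found per thinned NK cell averaged 2.49 and 2.72 on day 14 and 3.62 and 3.59 on day 5. Prf1 together with a granzyme was found in 17.5% and 19.4% of NK cells on day 14 and in 55.8% and 50.6% on day 5. All of Gzma, Gzmb and Prf1 were found in 7.87% and 10.3% on day 14 and in 39.8% and 36.2% on day 5. In each of these the day 14 libraries lay below both day 5 libraries. NK cells with none of the 8 were rare on both days, at 2.64% and 3.97% on day 14 and 3.49% and 1.92% on day 5, against 95.8% and 96.1% of B cells on day 14 and 100% and 99.2% on day 5.

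CD8 T cells carried a smaller set. They averaged 1.21 and 1.53 members per thinned cell on day 14 and 1.69 and 1.29 on day 5, mostly Nkg7, which was found in 79.9% and 86.3% on day 14 and in 88.4% and 82.8% on day 5. Any granzyme was found in 21.6% and 36.8% on day 14 and in 40.5% and 32.3% on day 5, and a granzyme together with Prf1 in 1.02% and 1.75% on day 14 and in 3.40% and 1.17% on day 5. The days overlapped in each of these. The day 5 values rest on 17 and 18 cells. Gzma with Gzmb was 2.91 and 2.68 times the product of the single shares on day 14, while Gzma with Gzmk stood at 0.33 and 1.42 and did not have 1 direction. Gzmk was found in 25.9% and 28.3% of unthinned CD8 T cells on day 14 and in 41.2% and 22.2% on day 5, with exact binomial intervals at 95% from 19.3% to 33.5% and from 19.98% to 37.9% on day 14 and from 18.4% to 67.1% and from 6.41% to 47.6% on day 5.

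No member passed the threshold by day in T cells in the fit with day as its only term. By edgeR's quasi-likelihood test 0 of 7 members tested were called, where 0.735% of 6392 genes were, and 2 of the 7, Gzma and Serpinb9, had an unadjusted p under 0.05. DESeq2 called none of the 4 for which it gave an adjusted p. With mixed barcodes kept, edgeR called Serpinb9 higher on day 14 (1.56), and Gzma was called lower without the filter on low counts (-1.30). T cells had 33.4 and 79.2 CPM of Gzma on day 14 and 222 and 64.5 CPM on day 5, with overlap (log2 fold change -1.44 ± 0.51, edgeR adjusted p = 0.300). The day 5 level of Gzma rested on library 1, without which the log2 fold change was -0.15, and without day 14 library 2 it was -2.10 and passed the threshold (edgeR adjusted p = 0.00265). Gzmb had 108 and 351 CPM on day 14 and 370 and 221 CPM on day 5, with overlap (-0.37, edgeR adjusted p = 0.872). Without day 14 library 2 it was called lower (-1.43, edgeR adjusted p = 6.19e-06), and without day 14 library 1 its direction turned (0.25).

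Gzmk in T cells had 42.1 and 56.7 CPM on day 14 and 74.0 and 92.2 CPM on day 5, the days not overlapping (-0.69 ± 0.37, edgeR adjusted p = 0.563). Within the CD8 class, Gzmk had 130 and 152 CPM on day 14 and 192 and 187 CPM on day 5. Serpinb9 in T cells had 38.3 and 49.2 CPM on day 14 and 13.5 and 9.22 CPM on day 5 (1.93 ± 0.65, edgeR adjusted p = 0.268). Each of these day 5 values rested on fewer UMIs than the 3 that a count of 0 allows. Of 33 pathway genes tested in T cells, Ltb alone was called, higher on day 14 (0.94).

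The day effect itself was compared between NK and T cells with a class by day term. Serpinb9 differed, by -2.63 ± 0.60 on the log2 scale for the NK effect minus the T effect (edgeR adjusted p = 0.0179), 1 member of 8 tested where 1.22% of 5976 genes were called. The T cell level of Serpinb9 on day 5, 13.5 and 9.22 CPM, rested on fewer UMIs in each library than the 3 that a count of 0 allows. On day 14 Serpinb9 was called lower in NK cells and stood at higher values, not called, in T cells. The call was lost without day 5 library 1 (-3.14, edgeR adjusted p = 0.0897), without day 5 library 2 (-2.41, edgeR adjusted p = 0.133) and by DESeq2. The Prf1 effects differed by -1.79 ± 0.61 (edgeR adjusted p = 0.236) and the Gzma effects by -0.55 ± 0.33 (edgeR adjusted p = 0.669), so the lower Gzma and Prf1 of NK cells were not shown to be particular to them. With mixed barcodes kept, the Prf1 effects differed by -2.13 and passed the threshold, as did those of Nkg7 (-0.57).

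Serpinb9 was the only member with a high level in myeloid cells. Mature dendritic cells had 894 and 768 CPM on day 14 and 639 and 445 CPM on day 5, above NK cells of the same library on day 14 and in library 1 of day 5. Other dendritic cells had only 10.3 and 29.6 CPM on day 14 and 8.05 and 12.2 CPM on day 5, and neutrophils had none in any library. At 1000 UMIs, Serpinb9 was found in 49.9% and 46.4% of mature dendritic cells on day 14 and in 39.6% and 32.6% on day 5. The day 14 values lay above the day 5 values, but the change was not called in mature dendritic cells (log2 fold change 0.62 ± 0.23, edgeR's quasi-likelihood test with Benjamini-Hochberg adjustment, adjusted p = 0.270). There 0.699% of 2003 genes were called. Serpinb9 had an unadjusted p under 0.05 by edgeR in mature dendritic cells and was not called by DESeq2.

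Over all dendritic cells other than plasmacytoid ones, Serpinb9 was higher on day 14 (151 and 138 CPM, against 44.1 and 33.8 CPM on day 5, log2 fold change 1.92 ± 0.17, edgeR adjusted p = 1.47e-05), where 12.3% of 7922 genes were called. Mature dendritic cells were 2.09% and 3.37% of barcodes on day 14 and 0.865% and 0.602% on day 5, and their part in this change was not tested. Set against the other mononuclear phagocytes (10.8 and 19.6 CPM on day 14, 7.37 and 5.70 CPM on day 5), all dendritic cells together had more Serpinb9 (2.87 ± 0.20, edgeR adjusted p = 1.36e-05, 35.5% of 9007 genes called).

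The remaining members were low in myeloid cells, though several values exceeded the day 14 background of B cells. Nkg7 in neutrophils had 37.3 and 43.6 CPM on day 14 and 104 CPM in day 5 library 2. Gzma in monocytes and macrophages had 12.4 and 17.2 CPM on day 14 and 10.2 CPM in day 5 library 1. Neutrophils of day 14 library 1 had 14.9 CPM of Gzma. No member passed the filter on low counts for the day comparison in B cells, plasmacytoid dendritic cells or neutrophils. NK cells exceeded all myeloid cells in each of the 7 members tested, by log2 fold changes from 3.46 for Serpinb9 to 9.73 for Prf1, where 43.2% of 9333 genes were called and 18.4% were higher. By day, 3 of 4 members tested in the sum of all myeloid cells were called higher on day 14, where 19.8% of 11036 genes were called and 11.4% were higher: Serpinb9 (2.65 ± 0.20), Gzmb (2.16) and Nkg7 (1.21). The make-up of this sum differed by day, with microglia at 6.27% and 3.98% of barcodes on day 14 and 32.4% and 41.5% on day 5. The part of that shift, and of the larger share of mature dendritic cells, in these calls was not tested. The Gzmb call was lost without day 14 library 2 (1.41, edgeR adjusted p = 0.377), without day 5 library 1 (1.64, edgeR adjusted p = 0.128) and by DESeq2, and the Nkg7 call without day 14 library 1 (1.02, edgeR adjusted p = 0.0506). Gzma (1.00, edgeR adjusted p = 0.0541) was called without day 5 library 1 (1.33) or day 14 library 1 (1.19). The levels behind Gzmb and Nkg7 were low, with 1.83 and 3.94 CPM of Gzmb on day 14 and 0.345 and 1.02 CPM on day 5, and 17.8 and 13.1 CPM of Nkg7 on day 14 and 5.29 and 8.34 CPM on day 5. NK and T cells made up a larger share of the day 14 libraries, and the part of free RNA from them was not tested. In monocytes and macrophages Nkg7 was called higher (1.59, edgeR adjusted p = 0.0166), where 9.76% of 9271 genes were. In microglia 0 of 4 members were called by edgeR or DESeq2, 2 of them, Gzmb and Serpinb9, with an unadjusted edgeR p under 0.05, where 2.81% of 9280 genes were called. Without the filter on low counts both were called by edgeR (adjusted p = 0.0457 for Gzmb and 0.0441 for Serpinb9). Microglial levels were low, with 4.27 and 8.63 CPM of Gzmb on day 14 and 0.476 and 0.947 CPM on day 5. Those of Serpinb9 were 22.8 and 8.63 CPM on day 14 and 8.81 and 5.68 CPM on day 5, with overlap.

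Gzmb was also found in barcodes outside all these classes. On day 5, 3 barcodes of library 2 carried Mcpt8 and Cpa3, genes of basophils and mast cells, with 9, 31 and 222 UMIs of Mcpt8. Their 4, 56 and 79 Gzmb UMIs came to 139 of the 577 Gzmb UMIs of that library (24.1%) and to 11337 CPM, above the NK level of 1458 CPM. They held 0 UMIs of Gzma, Prf1 and Serpinb9, 1 of Gzmc and 5 of Nkg7. No barcode of the other 3 libraries fell into this class.

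The genes whose levels ran most like each member were found by Pearson's r of log2(CPM + 10) over 44 class by library sums of 20 or more cells, among 6364 genes. These values describe sums that share libraries and carry no test. Gzma and Prf1 ran most like each other (r = 0.974). Gzmb ran most like the cathepsin Ctsw (r = 0.952) and the member Nkg7 (r = 0.94998), and Nkg7 like Ctsw (r = 0.966) and Il2rb (r = 0.951). Fasl ran most like Ifng (r = 0.958). Gzmk ran most like Dapl1 (r = 0.844) and Gzmm (r = 0.773), and Serpinb9 like Serpinb6b (r = 0.940) and the adenosine receptor gene Adora2a (r = 0.896). Gzmc ran most like Klrb1f (r = 0.835) and Xcl1 (r = 0.829).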

How the data were processed

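The authors deposited raw UMI counts per gene and cell barcode for 4 libraries. The tools named in the submitters' processing notes are Seurat 2.3.4 and Cell Ranger 3.0.1, on GRCm38 (mm10). Software version 3.0.1 stands in the day 5 matrices and none in those of day 14, per the file headers. The UMI minimum of a barcode also differs by day, so processing and day cannot be told apart. Counting strand was not given in the sources used here.

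Barcodes of 200 or more genes and at most 10% mitochondrial UMIs were gated on marker genes. No doublet caller was run. A barcode was left out as mixed if it met the B cell gate (3 or more UMIs of Cd79a, Cd79b and Ms4a1) with the T or NK gate, or met a lymphocyte gate with over 2% of its UMIs from Cst3, Ctsb, Lyz2, Apoe, C1qa, C1qb and C1qc, all phagocyte genes. Members, markers and lists were chosen with earlier results of these data known, and the gate limits after the data were seen.

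Sums of UMI counts were formed for each class in each library, for classes of 20 or more cells in every library of a fit, and tested with edgeR 4.0.16 in R 4.3.3 (quasi-likelihood F test, TMM, filterByExpr, two-sided). P-values were adjusted by Benjamini-Hochberg over all genes of a fit, with a threshold of 0.05. Fits by day had day as the only term, and fits between classes had the library as a block. CPM are UMIs per 1000000 UMIs of the class sum. Values after ± are the SE for log2 fold changes, taken as the size of the log2 fold change over the square root of F, and the SD for CPM. Thinned shares are the values expected when 1000 UMIs are kept of each cell, leaving out shallower cells. Intervals cover counting error only, and a count of 0 allows up to 3 UMIs. Alternatives were DESeq2 1.42.0, no filter on low counts, gates raised by 1 UMI, mixed barcodes kept, each library left out, the replicate number as a block, and thinning to 500 UMIs or none.

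All 8 members, up to 10 genes of the pathway list per comparison and up to 4 per subset list are named, those past the threshold with the largest change, with the 3 genes most like each member, of which the text gives the first 1 or 2. In simulated data for the day comparison, 93% of 200 genes changed 4-fold were recovered in NK cells (5155 genes) and 85% in T cells (6392 genes), and 100% for NK against T cells (4955 genes). Of the genes called there, 7.46%, 2.30% and 2.44% had not been changed, so the first was above the threshold of 5%. The changed genes were drawn only from those with higher counts, and all genes of a fit were simulated with the same spread. The shares recovered therefore do not describe members with few UMIs. Promoter sequences are from RefSeq, matched for all 8 members.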

Additional observations from a re-analysis of the deposited data

Results flagged for a closer look

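The difference between the day effect of NK cells and that of T cells passed the threshold of edgeR's class by day term for 1 member and 2 genes of the NK subset lists. Serpinb9 differed by -2.63 on the log2 scale. Its level was lower on day 14 in NK cells (272 and 308 CPM, against 491 and 562 CPM on day 5) and stood at 38.3 and 49.2 CPM on day 14 and 13.5 and 9.22 CPM on day 5 in T cells. Each T cell value of day 5 rested on fewer UMIs than the 3 that a count of 0 allows. The inhibitory receptor gene Klrg1 differed by -2.20, with 8.90 and 19.6 CPM on day 14 and 142 and 105 CPM on day 5 in NK cells, and 29.7 and 57.5 CPM on day 14 and 94.2 and 55.3 CPM on day 5 in T cells. Klf2, a factor of circulating lymphocytes, differed by -1.69, with 469 and 200.2 CPM on day 14 and 1199 and 995 CPM on day 5 in NK cells, and 588 and 516 CPM on day 14 and 478 and 664 CPM on day 5 in T cells. DESeq2 called none of the 3. The Klrg1 call was also lost without day 14 library 1 (-2.17, edgeR adjusted p = 0.121) or day 14 library 2 (-2.35, edgeR adjusted p = 0.248), and the Serpinb9 call without either day 5 library, while Klf2 kept its call with each library left out, at -2.25 to -1.22.

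Gzmb also appeared in data outside every comparison, with 139 UMIs in 3 barcodes that carried basophil and mast cell markers in day 5 library 2. No such barcode was gated in the other 3 libraries.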

How the results depend on the processing

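Of 958 values recomputed for 132 results, 769 kept their direction and side of the threshold, or moved by less than the limit set for untested values. Over all NK cells Gzma, Gzmc and Prf1 kept their day calls under each alternative, but in NK cells of 1317 or more UMIs Prf1 lost its call without day 5 library 1 (-1.02) and with mixed barcodes kept (-1.09). The causes of the changes below were not tested, except that leaving out a library or the filter changes how many samples or genes are tested. With DESeq2, NK day changes were -0.63 for Gzmb and -0.73 for Serpinb9 (not called), and genes called numbered 118 in NK cells, 433 in dendritic cells, 1451 in myeloid cells, 377 for NK over T cells, 144 for NK over CD8 T cells, 65 for CD8 over CD4 T cells, 6 for Gzmc-carrying over other NK cells and 1 for the class by day term, where Serpinb9 stood at -2.68 (not called). In the Gzmc comparison DESeq2 gave 12.77 for Gzmc itself and -0.38 for Nkg7, neither called. DESeq2 gave no adjusted p for Prf1, Fasl and Serpinb9 in T cells by day or for Gzma, Gzmb, Gzmk, Prf1, Fasl and Serpinb9 between CD8 and CD4 T cells.

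Stricter gates gave -0.40 for Gzmb in NK cells (not called), 0.24 for Fasl in T cells, 0.14 for Gzmb in the class by day term and 44 genes for the Gzmc comparison. With mixed barcodes kept, NK day changes were -0.46 for Gzmb, -0.30 for Nkg7 and -0.42 for Serpinb9 (not called), and 0.11 for Fasl and 0.0078 for Serpinb9 in NK cells of 1317 or more UMIs. T cell changes were 0.57 for Gzmb, 0.33 for Nkg7, 0.68 for Fasl and 1.56 for Serpinb9 (called), with 878 genes called. The class by day term gave -2.13 for Prf1 and -0.57 for Nkg7 (both called) and 136 genes, CD8 over CD4 T cells gave 107 genes, the Gzmc comparison gave 11 genes, -0.32 for Nkg7 (not called) and 0.0090 for Serpinb9, and the CD8 T cell share of barcodes differed by 6.05 points. Without a filter, Gzma in T cells was called lower (-1.30), and genes called numbered 185 in T cells and 100 in mature dendritic cells.

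The correlation of same-numbered libraries in NK cells was -0.0099, so the replicate numbers were not shown to pair the libraries. With the replicate block, Gzma in T cells was called (-1.49), and genes called numbered 142 in T cells, 67 in mature dendritic cells and 1400 in myeloid cells.

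Leaving out 1 library at a time, day changes ran from -0.89 to -0.38 for Gzmb and from -0.82 to -0.62 for Serpinb9 in NK cells, from -0.63 to 0.017 for Fasl in NK cells without Gzmc, and in T cells from -2.10 to -0.15 for Gzma, -1.43 to 0.25 for Gzmb, -0.78 to 2.08 for Fasl and -0.024 to 0.43 for Prf1. Microglial Gzma ran from -0.51 to 1.10. The class by day term ran from -1.61 to 0.061 for Gzma, -0.67 to 0.50 for Gzmb, -1.69 to 4.22 for Gzmc, -0.52 to 0.0081 for Nkg7, -2.69 to 0.55 for Fasl and -3.14 to -2.41 for Serpinb9. Genes called ran from 187 to 274 in NK cells, 16 to 105 in T cells, 36 to 59 in mature dendritic cells, 287 to 1229 in dendritic cells, 1244 to 2111 in myeloid cells, 338 to 922 for NK over T cells and 14 to 78 for the class by day term. A day left with 1 library was assumed to vary like the other. Fits of the day 14 libraries alone had no residual degree of freedom without 1 of them and were not run.

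For shares of NK cells, day 14 minus day 5 in percentage points, no thinning gave -15.6 for Gzma, 13.9 for Gzmc, 0.877 for Gzmk, -21.2 for Prf1, 1.18 for Nkg7, 4.60 for Fasl and -4.79 for Serpinb9. Thinning to 500 UMIs gave -35.3 for Gzma, -23.0 for Prf1, -14.7 for Nkg7 and -12.8 for Serpinb9, and mixed barcodes kept gave -28.6 for Prf1, -1.24 for Nkg7 and -12.6 for Serpinb9. Co-detection ratios on day 14 without thinning were 1.31 for Gzmb with Gzmc, 0.69 for Gzma with Gzmc, 1.11 for Gzma with Prf1 and 1.11 for Gzmb with Prf1, and at 500 UMIs they were 1.32 for Gzma with Prf1 and 1.36 for Gzmb with Prf1. Depth limits the rare members most: Gzmk in NK cells rests on a few UMIs. All members in the CD8 T cells of day 5 rest on 17 and 18 cells.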
